A study of Mus musculus with 2 samples.

Results

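Very broad peaks of 5-hydroxymethylcytosine (5hmC) in foetal mouse male germ cells were the autosomal peaks of the captured library with a width over 5000 bp. They were chosen by this width alone and numbered 574 of 106034 autosomal peaks (0.541%) and of 108395 peaks in all. As width is the rule, the widths, folds and q values given here describe the peaks and support nothing. The series concerns TET1 and new DNA methylation in the male germline. Its samples are 2 libraries from wild-type prospermatogonia at E17.5 (days of embryonic development), 1 captured for 5hmC and 1 taken before the capture. Both came from batch 1 and from 50 ng of DNA of 30000 frozen germ cells, pooled over several embryos. Peaks of the captured library were the data. Its depth is unknown, it has no replicate, and no test across samples was possible.

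TET enzymes oxidise 5-methylcytosine to 5hmC, and in many tissues 5hmC lies in the bodies of active genes and at enhancers, while starts in CpG islands hold little of it. Prospermatogonia are the germ cells of the foetal testis that stop dividing and regain DNA methylation before birth. In 5hmC-Seal a tagged glucose is put on 5hmC and the tagged fragments are pulled down, so a broad peak is a long stretch in which captured fragments outnumber what the peak caller takes as background.

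Sequence came from the RefSeq tables of GRCm38.p6, the same build as mm10. They hold start windows of genes and mature miRNAs, and the sequence of the peaks themselves was not analysed here. The start windows run from 250 bases before to 50 after a transcription start. The CG dinucleotide, the main site of cytosine methylation in mammals, is in capitals. It was counted on both strands at once, since CG reads the same on each, and 95.6% of the 20085 autosomal protein-coding windows hold at least 1. These 4 windows lie at starts inside very broad peaks. They are shown because such starts were few and, except the one of Il3ra, poor in CG.
Il3ra, chr14:14346245-14346544, plus strand: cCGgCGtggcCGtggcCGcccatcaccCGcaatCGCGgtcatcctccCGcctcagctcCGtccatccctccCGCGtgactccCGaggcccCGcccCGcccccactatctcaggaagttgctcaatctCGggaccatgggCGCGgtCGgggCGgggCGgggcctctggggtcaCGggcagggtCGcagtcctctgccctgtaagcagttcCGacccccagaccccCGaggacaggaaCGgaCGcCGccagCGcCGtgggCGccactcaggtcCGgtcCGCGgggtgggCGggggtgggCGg
Nt5dc2, chr14:31134486-31134785, plus strand: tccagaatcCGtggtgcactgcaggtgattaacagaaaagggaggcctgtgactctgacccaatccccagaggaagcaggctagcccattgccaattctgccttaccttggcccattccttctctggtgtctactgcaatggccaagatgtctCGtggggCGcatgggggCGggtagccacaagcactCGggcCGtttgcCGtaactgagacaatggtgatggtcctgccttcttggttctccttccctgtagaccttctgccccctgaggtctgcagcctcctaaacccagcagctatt
Ldb1, chr19:46037021-46037320, minus strand: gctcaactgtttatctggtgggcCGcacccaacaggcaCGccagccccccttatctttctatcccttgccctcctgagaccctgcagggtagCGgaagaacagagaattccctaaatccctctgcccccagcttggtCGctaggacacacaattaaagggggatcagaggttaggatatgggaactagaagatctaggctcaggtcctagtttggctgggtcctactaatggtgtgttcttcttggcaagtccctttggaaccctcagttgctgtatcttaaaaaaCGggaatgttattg
Ccr8, chr9:120091883-120092182, plus strand: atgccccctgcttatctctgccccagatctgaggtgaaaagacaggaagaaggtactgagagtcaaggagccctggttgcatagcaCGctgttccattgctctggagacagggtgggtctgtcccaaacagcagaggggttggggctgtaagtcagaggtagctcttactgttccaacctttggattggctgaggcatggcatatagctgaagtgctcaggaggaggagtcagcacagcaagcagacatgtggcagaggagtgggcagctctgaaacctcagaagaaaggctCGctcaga

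The next 4 windows belong to genes largely covered by a very broad peak that began downstream of the start. Those of Calm3, Ptbp1 and B4galnt4 are rich in CG, and the one of Aldh1b1 is the poor exception.
Calm3, chr7:16923983-16924282, minus strand: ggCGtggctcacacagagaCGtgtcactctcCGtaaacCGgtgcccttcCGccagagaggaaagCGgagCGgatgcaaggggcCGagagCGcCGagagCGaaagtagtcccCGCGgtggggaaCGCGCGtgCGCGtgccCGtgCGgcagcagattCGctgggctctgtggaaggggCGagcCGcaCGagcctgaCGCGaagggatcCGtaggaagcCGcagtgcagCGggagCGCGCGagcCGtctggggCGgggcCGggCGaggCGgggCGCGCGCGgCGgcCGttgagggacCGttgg
Ptbp1, chr10:79854182-79854481, plus strand: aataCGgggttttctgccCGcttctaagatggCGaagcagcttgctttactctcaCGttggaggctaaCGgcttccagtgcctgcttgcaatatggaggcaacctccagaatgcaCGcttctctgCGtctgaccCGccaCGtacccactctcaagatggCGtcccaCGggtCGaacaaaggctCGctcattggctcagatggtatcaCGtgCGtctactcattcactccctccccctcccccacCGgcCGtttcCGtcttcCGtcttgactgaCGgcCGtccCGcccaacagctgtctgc
B4galnt4, chr7:141060728-141061027, plus strand: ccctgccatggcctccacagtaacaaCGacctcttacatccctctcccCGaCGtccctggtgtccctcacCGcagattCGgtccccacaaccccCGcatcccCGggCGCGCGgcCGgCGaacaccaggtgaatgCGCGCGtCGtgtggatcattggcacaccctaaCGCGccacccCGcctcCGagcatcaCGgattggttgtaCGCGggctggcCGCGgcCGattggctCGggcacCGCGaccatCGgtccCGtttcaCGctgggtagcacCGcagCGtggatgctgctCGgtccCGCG
Aldh1b1, chr4:45798772-45799071, plus strand: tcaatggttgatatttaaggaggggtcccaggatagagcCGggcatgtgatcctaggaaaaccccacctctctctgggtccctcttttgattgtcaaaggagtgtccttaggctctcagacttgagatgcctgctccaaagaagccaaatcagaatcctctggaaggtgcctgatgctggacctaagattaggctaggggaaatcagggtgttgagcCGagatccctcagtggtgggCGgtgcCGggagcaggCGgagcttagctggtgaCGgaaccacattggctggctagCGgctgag

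Mature miRNAs lay in 9 of the very broad peaks. One peak of 5003 bp, chr12:109590977-109595979, held 6 miRNA hairpins and 11 mature miRNAs within the span of Rtl1, an imprinted gene derived from a retrotransposon. One mature miRNA of each hairpin is shown, 5′ to 3′, with the seed (bases 2 to 8) in capitals.
miR-433-3p: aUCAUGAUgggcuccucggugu
miR-127-3p: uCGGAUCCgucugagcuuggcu
miR-434-3p: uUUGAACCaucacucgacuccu
miR-432: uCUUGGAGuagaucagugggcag
miR-3071-3p: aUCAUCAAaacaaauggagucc
miR-136-5p: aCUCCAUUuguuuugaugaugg

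The seeds of these 6 miRNAs differ from each other, and no pair of all mature miRNAs in very broad peaks shared a seed. miR-136 and miR-3071 come from opposite strands of the same stretch.

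The very broad peaks had a median width of 6.39 kb, and the middle part of them, from the lower to the upper quartile, ran from 5523 to 7486 bp. Only 142 were wider than 7500 bp, 17 wider than 10000 bp and 1 wider than 20000 bp. The widest, at chr9:3000008-3038270, spanned 38263 bp, met no gene and had a −log10 q of 594. They covered 3.90 Mb, or 4.10% of all autosomal peak sequence. The 3 narrowest members, at Furin, Rtl1 and Pde4c, were 5002, 5003 and 5003 bp wide with folds of 3.77, 4.74 and 3.53. The 3 widest peaks left out, near Cetn1, Nrf1 and Ctdspl, were 4995, 4997 and 4999 bp wide with folds of 6.56, 4.16 and 3.51.

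What the deposited fold enrichment is relative to, such as the library before capture or a background modelled from the captured one, is not given in the sources used here. Over the very broad peaks this fold had a median of 5.41, from 2.87 to 13.2, against a median of 3.33 in the 105460 narrower autosomal peaks. Their −log10 q had a median of 5.63, against 1.81. A −log10 q of at least 5 was reached by 57.7% of them and by 11.7% of the narrower peaks. Width, fold and q come from the same calls and are not independent of each other.

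**Figure D1:**
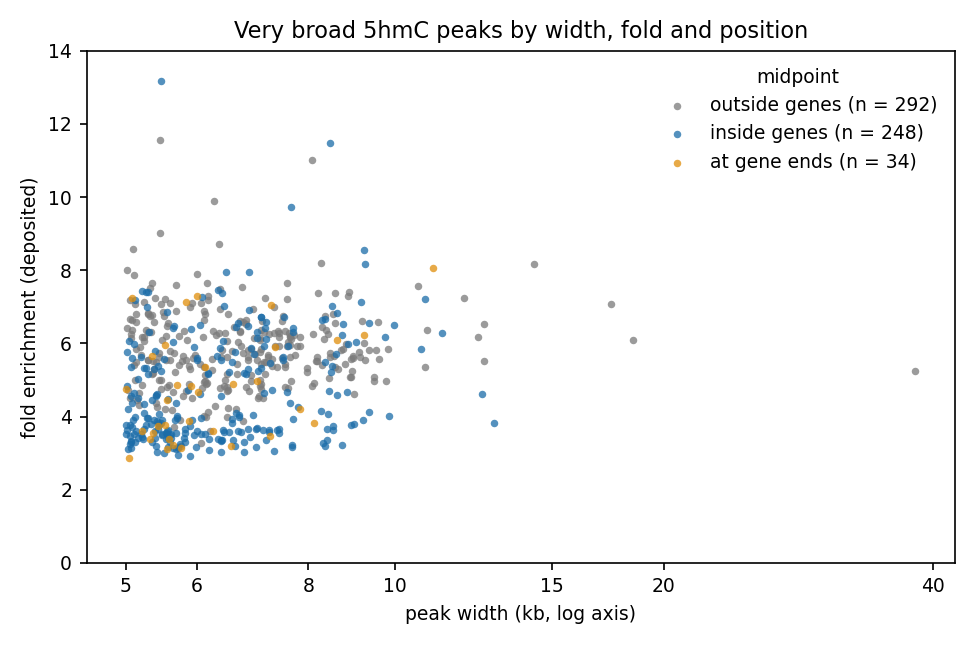
Each point is 1 of the 574 very broad peaks, by its width in kb on a log axis and its deposited fold enrichment, coloured by where its midpoint lay. Points outside genes gather around a fold of 5.77, and points inside genes reach down to 2.92 with a median of 4.08.

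A midpoint within 1 kb of either end of a gene was counted as at a gene end, another midpoint in a gene span as inside, and the rest as outside. Of the very broad peaks, 292 lay outside genes (50.9%, exact Clopper-Pearson 95% interval 46.7 to 55.0), 248 inside (43.2%, 39.1 to 47.4) and 34 at gene ends (5.92%, 4.14 to 8.18). The narrower peaks lay outside in 36.1%, inside in 55.3% and at gene ends in 8.56%. Peaks of 2 to 5 kb were placed like the other narrower ones, with 37.6% outside and 54.3% inside. Among the peaks over 7500 bp the share outside was 59.9% (51.3 to 68.0). The intervals cover counting error only, and neighbouring peaks are not independent.

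The peak sequence gave the same order. Gene spans held 44.4% of the bases in very broad peaks, 61.6% of those in narrower peaks and 49.4% of the autosomal sequence from the first to the last peak or gene. For protein-coding genes the shares were 37.6%, 53.8% and 40.9%. No gene span was met by 273 of the very broad peaks (47.6%), and 231 lay wholly in gene spans (40.2%). The midpoint of 24 lay in a long noncoding RNA gene (4.18%, 2.70 to 6.16, against 6.59% of the narrower peaks). That of 16 lay in a pseudogene (2.79%, 1.60 to 4.49, against 1.21%).

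Position moved with the strength of the peak. At a −log10 q of at least 5, a comparison added after seeing the data, 68.0% of the very broad peaks lay outside genes (62.7 to 73.0) and 28.4% inside. The narrower peaks of that strength lay outside in 67.0% (66.2 to 67.9) and inside in 28.0%, so the intervals of wide and narrow peaks overlapped. Below that q, 63.4% of the very broad peaks (57.0 to 69.4) and 59.0% of the narrower ones (58.6 to 59.3) lay inside genes. The difference in position between very broad and narrower peaks was thus not seen among peaks of −log10 q of 5 or more.

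Fold split the very broad peaks in the same way, at a value of 4 chosen after the data were seen. Of the 142 with a fold under 4, 118 lay inside genes (83.1%, 75.9 to 88.9) and 9 outside. Of the 432 with a fold of 4 or more, 283 lay outside (65.5%, 60.8 to 70.0). The median fold was 4.08 inside genes and 5.77 outside, against 3.495 and 5.16 for peaks of 2 to 5 kb. With a fold under 4, 73.4% of the peaks of 2 to 5 kb lay inside genes (72.0 to 74.7), an interval below that of the very broad peaks. With a fold of 4 or more, 62.5% lay outside (60.9 to 64.1), and the intervals overlapped.

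**Figure D2:**
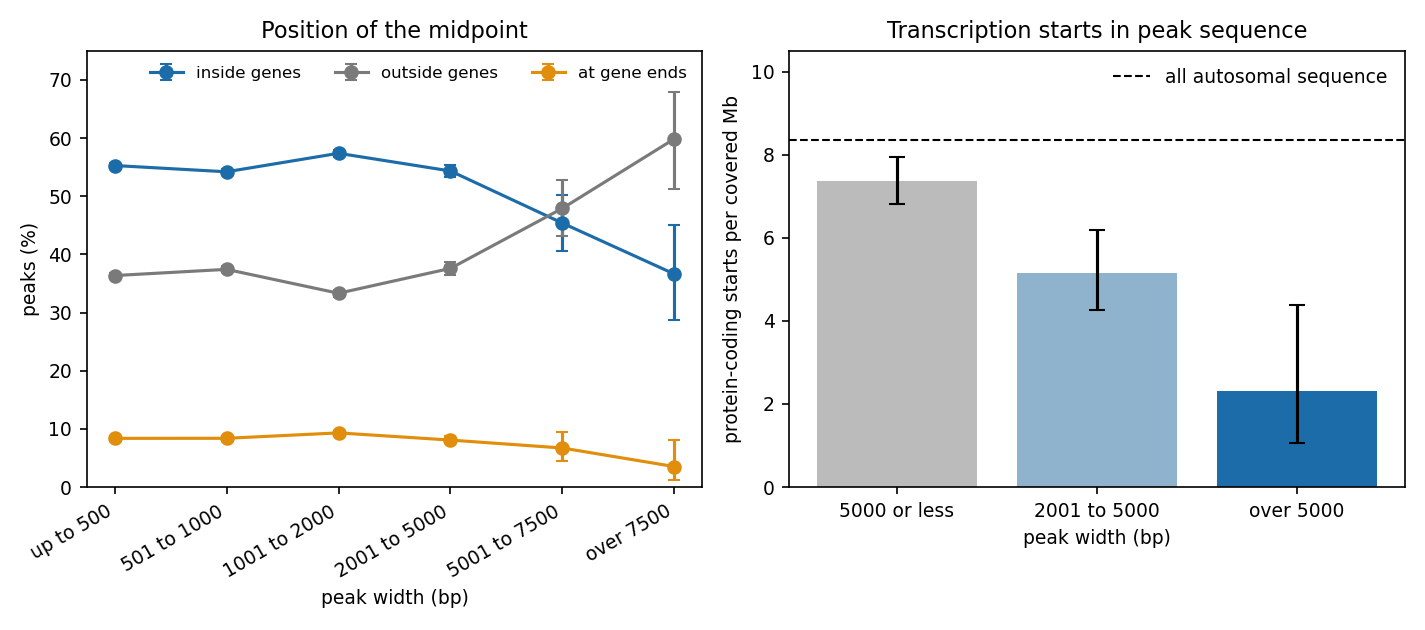
Left, the share of peaks with a midpoint inside genes, outside genes or at gene ends for 6 classes of width, with exact 95% intervals. Right, protein-coding transcription starts per Mb of peak sequence with exact Poisson 95% intervals and, dashed, the value for all autosomal sequence. The share outside rises over the widest classes, and the density of starts is lowest in peaks over 5000 bp.

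A protein-coding start lay in 9 of the very broad peaks (1.57%, 0.719 to 2.96). The starts belonged to 9 of the 16457 genes with a start in the table, which is 0.0547% of them. Wide peaks have more room for a start, so the count was also taken per Mb of peak. There were 2.31 starts per Mb in very broad peaks (exact Poisson 95% interval 1.06 to 4.38), 5.16 (4.26 to 6.19) in peaks of 2 to 5 kb, 7.36 (6.81 to 7.94) in all narrower peaks and 8.36 in the whole sequence. This order moved with the strength of the peak as well. At a −log10 q of at least 5, the very broad peaks had 1.70 starts per Mb (0.462 to 4.35) and the narrower ones 1.90 (1.27 to 2.73), and the intervals overlapped.

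The 9 genes with a covered start were Il3ra, Nt5dc2, Ldb1, Ccr8 and 5 gene models without a descriptive name. Il3ra codes for the interleukin 3 receptor alpha chain, Ccr8 for a chemokine receptor, and Ldb1 for a cofactor that binds LIM-domain proteins. For Nt5dc2 the covered start was its inner one, and the other start lay 3.41 kb upstream of the peak. The CG ratio is the number of CG observed over the number that the C and G content would give. It was 0.847 at the Il3ra start, 0.295 at the inner Nt5dc2 start, 0.257 at Ldb1 and 0.0947 at Ccr8, as the capitals printed above show. Only the start of Il3ra passed 0.6, a ratio reached by 48.9% of all starts. The median ratio was 0.257 over the 9 starts, 0.296 over starts in peaks of 2 to 5 kb, 0.285 over starts in narrower peaks than that, and 0.605 over starts in no peak. Starts in peaks of any width were therefore poor in CG, not those of very broad peaks alone.

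A group of 3 gene models had nearly the same start window on different chromosomes. The windows of Gm39701 on chromosome 1 and Gm42226 on chromosome 5 had 97.9% of 292 compared bases in common. Gm40595 on chromosome 10 had 93.9% of 293 bases in common with Gm39701 and 93.0% of 299 with Gm42226. The 3 peaks were 7.27, 7.83 and 8.43 kb wide in that order, with folds of 7.05, 4.21 and 4.69. A word of 25 bases from these windows was found at only 1 other gene of the table, Gm46353, whose start lay in a peak of 0.678 kb with a fold of 3.73. The 3 gene models were found through their starts in very broad peaks, so only Gm46353 could have lacked a peak at the start. Counting any such shared word, 4 of the 9 starts in very broad peaks shared one with another gene (44.4%, 13.7 to 78.8). The share was 11.6% in narrower peaks, 44.8% in the 29 starts of narrower peaks with a −log10 q of at least 5, and 22.8% over all starts. How reads from near-identical copies were assigned is not given in the sources used here, so a value at any of these copies is uncertain.

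A very broad peak met the span of a protein-coding gene or its flanks of 1 kb in 252 of 20560 genes (1.23%). Narrower peaks met 66.2% of the genes, and 84.9% of the 252 also had a narrower peak. At least 5 kb long and covered over more than 50% of the span were 20 genes. The 15 covered most are shown in the map of covered genes. They include Calm3, one of the genes for calmodulin, Ptbp1, a splicing regulator, Lamb2, a laminin chain, Sema4c, a semaphorin, and Rexo2, an exonuclease that degrades short RNA. The span of Il3ra was covered whole, Igsf8 to 82.8%, Calm3 to 81.0%, Npepl1 to 72.9%, Rexo2 to 72.1% and Ptbp1 to 65.6%. Wdr6, Cdk5rap3, Prrc2a, Aldh1b1, Nt5dc2, Lamb2, Sema4c, Slc4a3 and B4galnt4 followed, from 65.1% down to 54.2%. The Il3ra peak had a fold of 7.22 and a −log10 q of 9.62. Peaks of the others among these 15 genes were weaker, with folds from 3.06 at Igsf8 to 4.02 at Prrc2a. Their −log10 q was, for example, 1.42 at Igsf8, 1.61 at Ptbp1 and 2.91 at Prrc2a.

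In 14 of these 15 genes the peak began downstream of the gene's 5′ end. The distance was 0.481 kb at Lamb2, 1.57 kb at Calm3, 2.23 kb at Ptbp1 and at most 5.29 kb, at Sema4c. At Il3ra alone the peak began before the gene, at −0.634 kb from its 5′ end. A peak without the start was not particular to these genes. Among peaks with the midpoint in a protein-coding gene of known start, few covered a start of that gene. They were 9 of 185 very broad peaks and 88 of 3370 of 2 to 5 kb. Igsf8, Wdr6, Aldh1b1 and Nt5dc2 had peaks that ran more than 1 kb past the 3′ end, by 1.14, 1.04, 2.07 and 1.95 kb. Of the 18 starts of the 15 genes, 16 lay outside the peak, and 14 of these had a CG ratio of at least 0.6, with a median of 0.804 and 25 CG in 300 bases. The exceptions were Aldh1b1, with 7 CG, and Lamb2, with 4. These genes were chosen for their coverage. Over the starts nearest to the peak in all host genes of very broad peaks, 116 of 177 had such a ratio (65.5%, median 0.762), and 63.5% did in host genes of peaks of 2 to 5 kb (median 0.717).

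**Figure D3:**
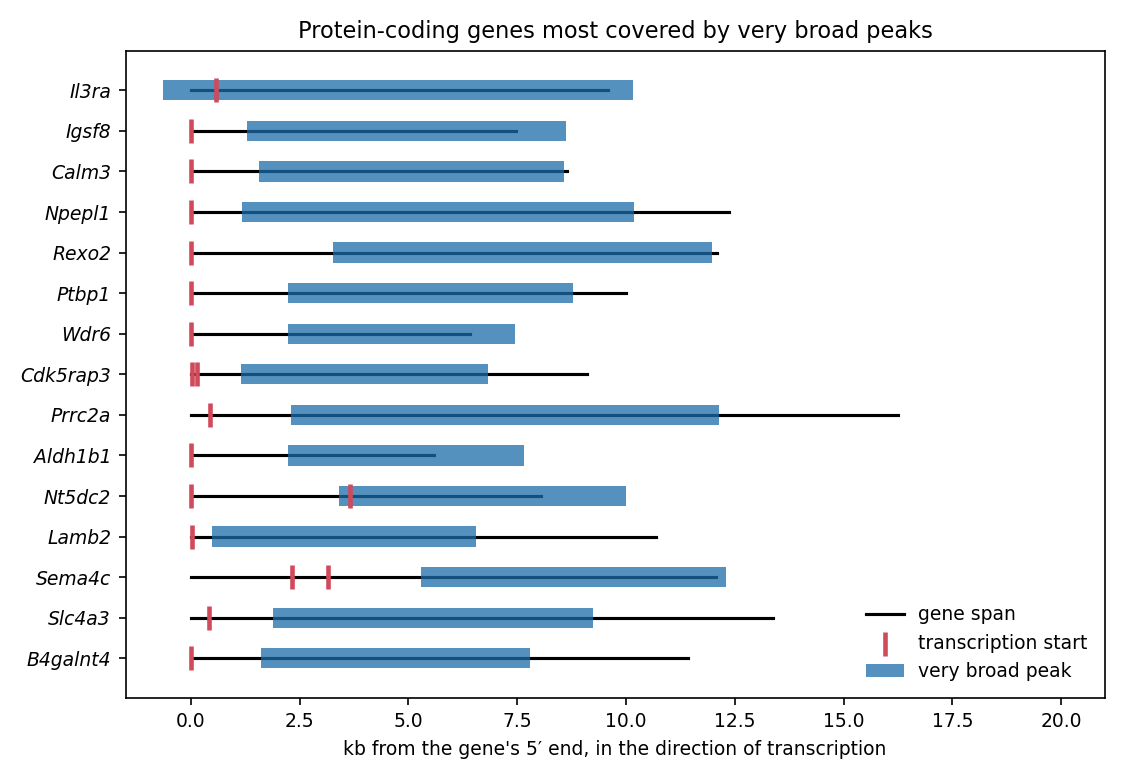
The 15 protein-coding genes of at least 5 kb with the largest share of the span in a very broad peak, aligned at the 5′ end in kb and drawn in the direction of transcription. Black lines are gene spans, blue bars very broad peaks and red ticks starts of the table. In all but Il3ra the bar begins to the right of the 5′ end.

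Within genes of 20 kb or more, 4 of 141 very broad peaks had the midpoint in the first 10% of the span (2.84%, 0.778 to 7.10). The shares were 9.59% for narrower peaks and 7.48% (6.52 to 8.54) for peaks of 2 to 5 kb, whose interval overlapped that of the very broad peaks. In the last 10% of the span the shares were 13.5%, 12.6% and 15.4%. A midpoint in the opening stretch needs room for the wide peak around it, and this was not corrected. The genes that held very broad peaks had a median length of 44.7 kb, against 45.5 kb for peaks of 2 to 5 kb, 29.99 kb for narrower peaks and 17.6 kb for all protein-coding genes.

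More than 1 very broad peak lay in 9 genes. Tiam1, an activator of the GTPase Rac, held 3, of 5.52, 5.38 and 5.60 kb, with folds of 2.997, 5.29 and 3.30. Arl15, Cep131, Cep57l1, Gse1, Nphp4, Plec, Ptpn14 and Zfp978 held 2 each. Cep131 and Nphp4 code for proteins of the centrosome and cilium, and Plec for a large linker of the cytoskeleton. The peaks in Plec were 12.5 and 5.62 kb wide with folds of 4.61 and 3.52, and those in Ptpn14, a phosphatase, had folds of 3.03 and 3.23. The peaks in Zfp978, a zinc-finger gene, had folds of 11.5 and 13.2, far above those of the other 8 genes, which lay between 2.997 and 7.03.

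Few genes of the lists drawn up for this tissue had a very broad peak. Of the germ cell identity genes, 1 of 28 had one. This was Kit, the receptor for stem cell factor, with a peak of 6.58 kb and a fold of 3.36 over 8.05% of the gene. None was found in 23 piRNA pathway genes, 35 meiosis genes, 34 spermiogenesis genes, 25 pluripotency genes, 24 genes of the gonadal soma and 19 of blood and endothelium. Of the imprinted genes 1 of 40 had one, Rtl1, and of the DNA methylation machinery 2 of 36. These 2 were Mbd1, a methyl-CpG binding protein, with a peak of 8.97 kb that lay just outside the gene, and Cxxc5, a CXXC zinc-finger protein, with 6.57 kb over 20.3% of the gene. Against the 1.23% of all genes, lists of this size would hold 0 or 1 such genes at that rate, so their counts say little. The defining markers of germ cells (8), gonadal soma (9) and blood and endothelium (8) had no very broad peak, which leaves the labelled cell type unchecked by them.

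Among the larger families, 6 of 388 genes with a Zfp symbol had a very broad peak (1.55%), 1 of 1103 olfactory receptors (0.0907%), 3 of 349 vomeronasal receptors (0.860%) and 4 of 362 solute carriers (1.10%). At Vmn1r2 and Vmn1r238 the peak met only the flank of 1 kb, and at Vmn2r97 it covered 22.5% of the gene. The receptor genes are short, with medians of 0.951 kb (olfactory) and 0.96 kb (vomeronasal), against 17.6 kb for all protein-coding genes. Narrower peaks also met few of them, 3.99% and 11.2%, against 66.2% of all. No member was found among 80 ribosomal protein genes, 53 keratins, 57 clustered protocadherins and 39 Hox genes. Of the collagens 1 of 42 had one, Col2a1, the main collagen of cartilage, with 6.78 kb and a fold of 3.31. Cdh3, the gene for P-cadherin, held the widest peak inside a protein-coding gene, of 12.9 kb with a fold of 3.82. Slc4a3, an anion exchanger, had a peak of 7.37 kb over 55.1% of the gene. The peak of 7.33 kb at Kcnj9, a potassium channel gene, is the one over Igsf8 and met only 5.37% of Kcnj9.

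The 292 very broad peaks outside genes lay at a median of 37.0 kb from the nearest protein-coding gene, and the narrower peaks outside genes at 39.3 kb. More than 500 kb away were 10.3% and 7.09% of them, and 9.95% of those of 2 to 5 kb. The nearest gene was an olfactory receptor for 14 of the 292 (4.79%, 2.65 to 7.91), a vomeronasal receptor for 13 (4.45%, 2.39 to 7.49) and a Zfp gene for 10 (3.42%, 1.65 to 6.21). The shares for narrower peaks were 1.81%, 1.58% and 1.81%. At a −log10 q of at least 5 they were 4%, 4.89% and 2.67% for very broad and 2.92%, 2.97% and 1.78% for narrower peaks, and each narrower share lay within the interval of the very broad one.

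Of the 10 very broad peaks with the highest fold, 5 lay in or near zinc-finger genes of chromosome 4, Zfp978, Zfp987, Zfp982 and Zfp984. The folds were 13.2 and 11.5 in Zfp978, 11.6 near Zfp987, 9.73 in Zfp982 and 8.57 near Zfp984. Other zinc-finger genes of that chromosome had lower folds, 6.11 at Zfp981 and 3.66 at Zfp462. The others lay near Gm32719 (11.0), Vmn1r157 (9.01) and Gm6034 (8.71), in Srrm2, a spliceosome component (8.54), and 225 kb from Rab10 (9.90). This last peak, chr12:3016113-3022392, lay within 1 Mb of the first peak or gene of its autosome. The 5 lowest folds were all at genes of other kinds. They were 2.87 at the end of Il6st, the signalling subunit of interleukin 6 receptors, 2.92 in Prpsap1, 2.94 in Celsr2, an atypical cadherin, 2.997 in Tiam1 and 3.02 in Gtf2i, a transcription factor.

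The widest peak of each autosome lay outside genes on 10 autosomes, inside on 8 and at a gene end on 1. Its width ran from 8.92 kb near Olfr169 on chromosome 16 to the 38.3 kb on chromosome 9. Those inside protein-coding genes were in Npepl1, Nxpe5, Cdh3, Smyd4, Il3ra, Plec and Prrc2a, with folds from 3.79 in Npepl1 to 8.17 in Nxpe5. Of the 20 widest in all, 12 lay outside genes and 7 inside. Among these, Ntrk2, the receptor for brain-derived neurotrophic factor, held one of 10.7 kb with a fold of 5.84.

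Malat1, a nuclear noncoding RNA of 6.98 kb, was covered over 97.6% of its span, start included, by a peak of 7.51 kb with a fold of 6.72. The same peak held Mascrna, the short RNA cut from the end of Malat1. In all, 21 starts of 19 noncoding RNA genes of the table's 9291 lay in very broad peaks. Narrower peaks held 821 of the 11311 such starts, 161 of them in peaks of 2 to 5 kb. Very broad peaks covered 3.90 Mb, narrower peaks 91.2 Mb and those of 2 to 5 kb 22.5 Mb, of 2403 Mb of autosomal sequence. A peak of 5.08 kb with a fold of 7.24 lay over Rprl2, an RNase P RNA gene of 238 bp. At chr17:39842997-39848829 a peak of 5833 bp with a fold of 7.12 and a −log10 q of 249 lay over Rn18s-rs5, a copy related to 18S ribosomal RNA. Only this peak and the widest one had a −log10 q above 100, and without them each of the 8 main values stayed within its interval.

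Hairpins of miRNA genes in very broad peaks numbered 14 of 919 (1.52%). Counted over the gene table, very broad peaks met 14 of 1136 miRNA genes (1.23%). They met the spans of 242 of 20560 protein-coding genes (1.18%), a share close to it. The 6 in the Rtl1 peak, Mir433, Mir127, Mir434, Mir432, Mir3071 and Mir136, are those whose sequences are printed above, and the fold there was 4.74. The other 8 peaks held 1 hairpin each. They include Mir5125 in the Srrm2 peak with a fold of 8.54, Mir6910 in the Ptbp1 peak with 3.18 and Mir6995 with 3.92.

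The density ran from 0.129 very broad peaks per Mb on chromosome 2 (23 peaks, exact Poisson 95% interval 0.0815 to 0.193) to 0.337 on chromosome 7 (48 peaks, 0.249 to 0.447), with a median of 0.255. Chromosome 7 was 1.32 times the median, and the densest autosome for narrower peaks, chromosome 11, was 1.30 times theirs. The orders differed. Chromosome 11 had 0.227 very broad peaks per Mb, under the median, with 56.9 narrower ones per Mb. The interval of chromosome 7 did not overlap those of chromosomes 2, 6 and 14 but overlapped those of the other autosomes. Per 1000 peaks the very broad ones ran from 2.97 on chromosome 2 to 7.36 on chromosome 18.

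**Figure D4:**
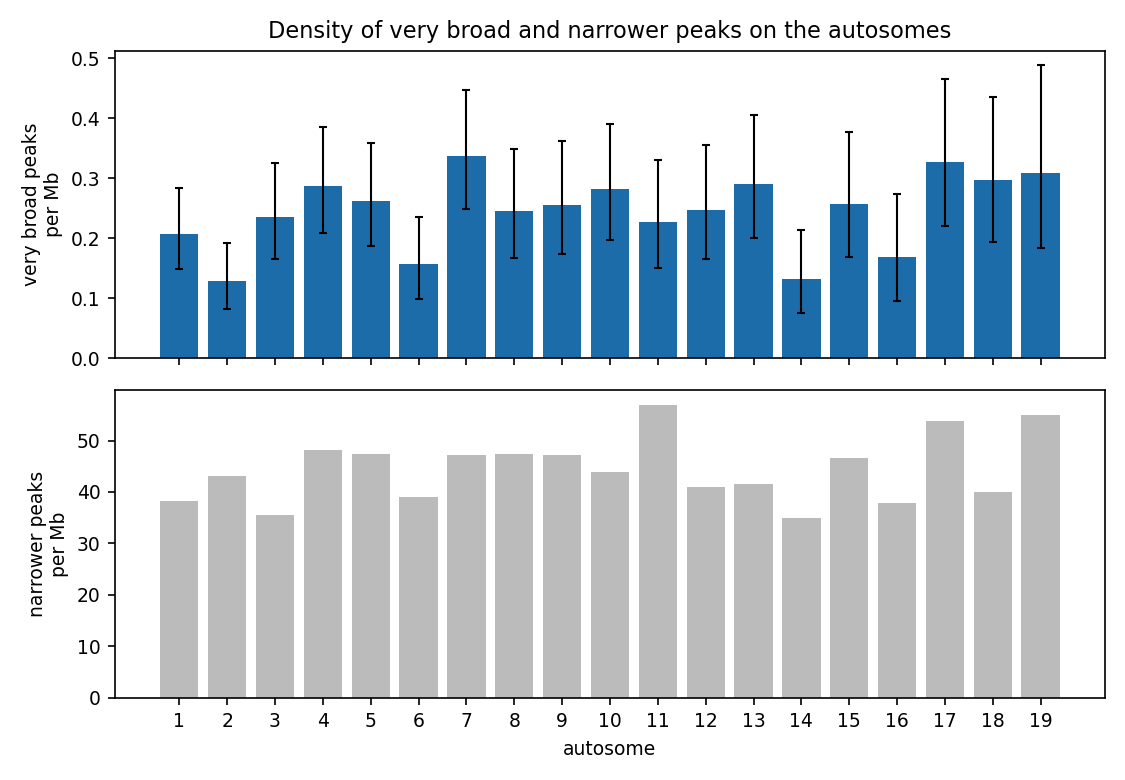
Very broad peaks per Mb on each autosome with exact Poisson 95% intervals (top) and narrower peaks per Mb (bottom). Chromosomes 2 and 14 are lowest and 7 highest for very broad peaks, while 11 is highest for narrower ones.

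The opening of the autosomes, next to the centromere in mouse, held more very broad peaks than its share of sequence. Within 1 Mb of the first peak or gene lay 27 of them (4.70%, 3.12 to 6.77), in 0.791% of the sequence. Narrower peaks had 0.895% there and peaks of 2 to 5 kb 1.36% (1.12 to 1.64). At a −log10 q of at least 5 the shares were 5.44% (3.25 to 8.46) for very broad and 2.07% (1.83 to 2.34) for narrower peaks. These intervals stayed apart, unlike those for position in genes, but they take neighbouring peaks as independent and are too narrow where peaks cluster. Of the 27 peaks, 3 near Samd9l on chromosome 6 and 3 near Gdi2 on chromosome 13 lay in runs. Peaks of 2 to 5 kb with that q had 2.64% there (2.02 to 3.38), an interval that overlapped that of the very broad peaks. Within 5 Mb the shares were 10.6% and 4.21%. In the last 1 Mb they were 1.22% (0.492 to 2.496) and 0.637%, and in the last 5 Mb 5.05% and 5.12%. How reads of repeated sequence were mapped, which bears on such regions, is not given in the sources used here, and its part was not tested.

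Another peak lay within 10 kb of 470 very broad peaks (81.9%, 78.5 to 84.9), of 74.9% of the narrower ones and of 84.2% of those of 2 to 5 kb. The median gap to the nearest peak was 2.57 kb, against 4.297 kb for narrower peaks and 2.87 kb for those of 2 to 5 kb. A wide peak takes up sequence in which other peaks could otherwise lie, and no gap between any peaks was under 905 bp. Very broad peaks inside genes had a neighbour within 10 kb in 89.1% and those outside in 74.7%. The shares were 88.7% and 76.9% for peaks of 2 to 5 kb and 79.3% and 67.2% for all narrower ones. Within 50 kb on each side of the midpoint the median number of other peaks was 10 for very broad peaks inside genes and 5 for those outside. It was also 10 and 5 for peaks of 2 to 5 kb, and 8 and 5 for all narrower ones. The most crowded very broad peak, in Cit, a kinase gene, had 28. No other peak within 50 kb was found for 11 very broad peaks, among them one in a region 612 kb from Nxph1, with a gap of 135 kb.

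Very broad peaks lay near each other. Another one was within 100 kb of 98 of them (17.1%, 14.1 to 20.4), while one was within 100 kb of 7.24% of the narrower peaks (7.09 to 7.40) and 10.7% of those of 2 to 5 kb (10.1 to 11.4). Among peaks with a −log10 q of at least 5, and with very broad neighbours of any q, the shares were 17.2% (13.3 to 21.7) and 8.46% (7.97 to 8.96). With the neighbours held to that q as well, they were 13.6% (10.1 to 17.8) and 5.95% (5.54 to 6.38), and the intervals stayed apart in both counts. Peaks of 2 to 5 kb with that q had 10.2% (8.99 to 11.5) with neighbours of any q. With the neighbours held to it, they had 7.17% (6.14 to 8.31). Each pair of very broad peaks counts both of its members, so the intervals of the very broad peaks are too narrow here. Without 1 Mb at each chromosome end, 15% of very broad peaks of any q had another within 100 kb (12.1 to 18.3). Joined at 100 kb, all very broad peaks made 476 singles, 37 pairs, 6 runs of 3 and 1 run of 6.

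**Figure D5:**
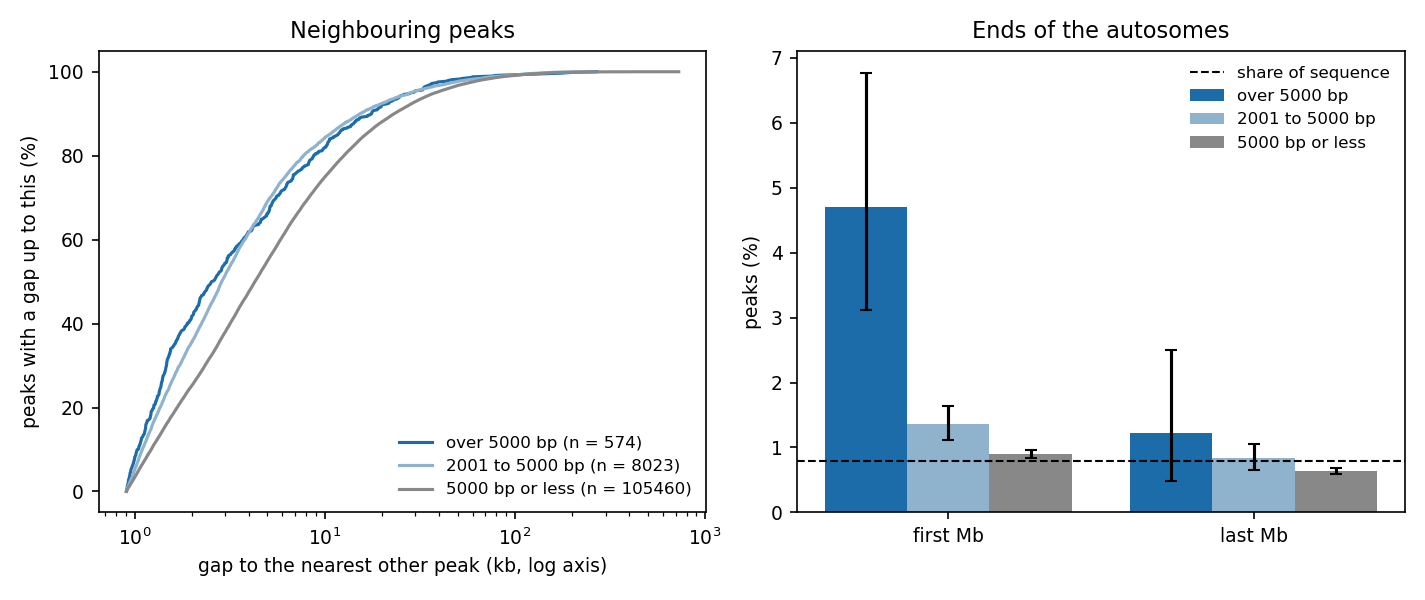
Left, the share of peaks whose nearest other peak lay within a given gap in kb, on a log axis, for 3 classes of width. Right, the share of each class in the first and last Mb of the autosomes with exact 95% intervals and, dashed, the share of the sequence. The curve of peaks over 5000 bp follows that of 2 to 5 kb, and the first Mb holds 4.70% of them.

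The run of 6, chr10:83374235-83477332, lay between D10Wsu102e and Aldh1l2, a mitochondrial folate enzyme gene. Its peaks covered 57.2 kb of 103 kb, were 8278, 17460, 8826, 10870, 5124 and 6614 bp wide along the chromosome, and had folds from 5.01 to 7.06. All 6 lay outside genes, with 6 narrower peaks between them. The runs of 3 lay near Cyp2a4, Nlrp9c and Nlrp4a on chromosome 7, at Smok2b and Tcp10c on chromosome 17, near Pramel14 and Gm13102 and near Rnf223 and Agrn on chromosome 4, near Gdi2 on chromosome 13 and near Samd9l on chromosome 6. The run near Rnf223 and Agrn was the tightest, with 22.8 of 29.5 kb covered, folds from 6.11 to 6.95 and no narrower peak between. In 5 of the 6 runs of 3 all peaks lay outside genes, and in the one at Smok2b none did.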

How the data were processed

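The deposited list of broad peaks of the captured library gives each peak a position, a score, a fold enrichment (a ratio) and a −log10 p and −log10 q, made by the authors. Per the submitters' processing notes the tools were MACS2 2.1.0, deepTools 3.5.1, Bowtie2 2.5.0, bedtools 2.27.1, Trim Galore and SAMtools 1.16.1, and the build was mm10. Their roles, settings and treatment of reads with several positions are not given in the sources used. The library before capture was not used here. The file holds no read counts.

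Members were peaks on chromosomes 1 to 19 wider than 5000 bp. Gene spans and start windows came from RefSeq tables of GRCm38.p6. Of the genes, 328 that start in the opening 3 Mb were left out. Starts were known for 80.0% of protein-coding genes. Exons, introns and repeats were not analysed here. Overlap meant at least 1 bp. A shared word was 25 bases with at least 10 distinct stretches of 3 bases. Intervals are exact Clopper-Pearson or Poisson at 95%. The counting steps were tested on simulated data. Python 3.11.15, pandas 2.3.3, numpy 2.4.6, scipy 1.17.1 and matplotlib 3.10.9 were used.

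Named were the 20 widest members, the widest of each autosome, the 10 highest and 5 lowest folds, 3 peaks on each side of the threshold, the 15 most covered genes, genes with the most members, the longest runs and up to 3 genes per list. Where that made long lists, only examples are printed. The members, lists and rules were chosen with earlier results of these data known. Alternatives changed the width threshold, q, merging, chromosome ends, overlap, gene type, windows and gaps.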

Additional observations from a re-analysis of the deposited data

Results flagged for a closer look

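Outside the autosomes, 16 peaks over 5000 bp were called, a signal that the comparisons did not use. The X had 12 of its 1967 peaks over that width and the Y 4 of 394. The widest on the X was 10.45 kb, in Mid1, a ubiquitin ligase gene, with a fold of 10.7, and one over Asmt, the last enzyme of melatonin synthesis, was 5.39 kb wide with a fold of 9.66. The other 10 on the X had folds from 3.65 to 4.64. On the Y, 3 of the 4 lay at or near Gm52481, with folds of 12.6, 9.08 and 5.88, and the library before capture was not used here.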

How the results depend on the processing

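Of 62 repeats of the main values, 37 stayed within the interval of the value reported. With a width over 4000 bp, 46.3% lay outside genes, 25.8% had another such peak within 100 kb and 2.75% of genes had one. With a width over 7500 bp, 36.6% lay inside genes, 3.52% at gene ends and 59.9% outside, 7.04% had another such peak within 100 kb and 0.263% of genes had one. With peaks of −log10 q of at least 5 alone, 28.4% lay inside, 3.63% at gene ends and 68.0% outside, 35.3% had another peak within 10 kb, 13.6% another very broad one within 100 kb, and 0.384% of genes had one. With neighbours of any q counted, 74.0% of these stronger members had another peak within 10 kb. With peaks within 1 kb merged, 1.65% of genes had one. With any overlap, 30.1% were inside, 24.7% at gene ends and 45.1% outside. With protein-coding genes only, these were 38.0%, 2.61% and 59.4%. With a gene-end window of 250 bp, 1.22% lay at gene ends. With a gap of 20 kb, 92.0% had a neighbour, and from midpoint to midpoint 71.1%. With 250 kb, 25.6% had another very broad peak near. The densest autosome stayed between 1.32 and 1.57 times the median, though it was chromosome 17 over 4000 bp and 18 at the higher q. No paired analysis was possible because there is 1 captured library. Limits: depth is unknown, widths depend on how the caller joins enriched stretches, 1 library gives no spread between animals, and intervals cover counting error only.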
